A study of Homo sapiens with 118 samples.

Results

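The fatty acid binding proteins FABP1 to FABP7 were followed in human liver cells exposed to histone deacetylase inhibitors. The 7 genes were taken by name, and a row of the count table belonged to a gene when its name without the trailing probe number equalled the gene symbol. Of the 7 genes, 6 had a row, with 8 rows among the 22069 rows of the table. FABP1 and FABP7 had a pair of rows each (FABP1_11582 and FABP1_2298, FABP7_2300 and FABP7_21750), FABP2_89564, FABP3_15817, FABP4_21799 and FABP6_25130 were single rows, and FABP5 was not analysed here. The family was chosen on the contrast between the highest and the lowest concentration, in which FABP1 was seen to fall and FABP4 to rise. The changes of FABP1 and FABP4 with concentration are therefore given below as a description, with no test.

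The cells were HepaRG, an established line from a human liver tumour, thawed in the differentiated state and kept in culture for a week before exposure. In that state the culture holds hepatocyte-like cells beside biliary-like cells. Each well received 1 of 8 inhibitors for 72 h, renewed daily, and every group shared the same induction medium. The concentrations, C1 to C5, rose for apicidin from 0.041722 through 0.125167, 0.3755 and 0.5 to 0.86 µM, and for mocetinostat from 0.177222 through 0.531667, 1.595 and 2.5 to 3.9 µM. Panobinostat was given at 0.001468, then 0.004403, 0.01321 and 0.03963, up to 0.084 µM, and scriptaid at 4.94, then 14.82, 44.46 and 60, up to 94.5 µM. Tacedinaline ran from 1.143333 over 3.43, 10.29 and 30.87 to 44 µM, and trichostatin A from 0.018811 over 0.056433, 0.1693 and 0.5079 to 1.5237 µM. Vorinostat ran from 0.404778 over 1.214333, 3.643 and 10.929 to 23.5 µM. For valproic acid the dose labels give 100.478, then 301.433, 904.3 and 2712.9, up to 3038, while the protocol gives smaller numbers in µM, so that the unit of this compound is not settled. Solvent-treated libraries were not analysed here. Each inhibitor was therefore read against its own lowest concentration, which hides any effect that C1 itself had.

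There were 118 libraries in 40 groups, 38 groups of 3 and 2 groups of 2 (panobinostat C3 and trichostatin A C4). Replicates 1, 2 and 3 came, per the labels, from separate HepaRG batches. Plate E held the libraries of scriptaid, tacedinaline and vorinostat, and plate H those of the other inhibitors, so that plate and inhibitor cannot be told apart. All libraries are of 1 cell line, so that the spread between replicates is that between batches of this line. RNA was read with TempO-Seq, a method that ligates paired probes on their transcript and sequences the product. Library totals lay between 1061359 and 5250260 counts (median 3702007). Levels are given in CPM, the counts of a row relative to the scaled total of its library, and since probes differ in efficiency, no level of a gene is compared with that of another gene. In lysates of whole wells, fewer cells of a type and less RNA per cell cannot be told apart.

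Fatty acid binding proteins are small cytosolic carriers that hold a long-chain fatty acid or a bile acid inside a barrel of beta strands and bring it to membranes, to mitochondria and peroxisomes, or to nuclear receptors. Each tissue uses its own set. FABP1 is the abundant form of hepatocytes and a target of the nuclear receptor PPARA. FABP2 belongs to the small intestine, FABP3 to heart and skeletal muscle, FABP6 to the ileum, where it carries bile acids, and FABP7 to radial glia of the brain. FABP4 belongs to adipocytes and macrophages and is a target of PPARG. Histone deacetylase inhibitors raise the acetylation of histones and of other proteins, and with it change the transcription of many genes.

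The sequence upstream of FABP1 is shown because the results turn on this gene, and that of FABP2 because it belongs to a relative that never passed 3 counts in a library. Both are RefSeq sequences of build GRCh38.p14, 250 bases up to the transcription start, written 5′ to 3′ on the strand of the gene. FABP1 lies at chr2:88128063-88128312 and FABP2 at chr4:119322139-119322388, both on the minus strand. Capitals mark matches, on either strand, to TATAAA (the TATA box), GTTAAT (a part of the site of the liver factor HNF1) and AGGTCA (a part of nuclear receptor sites, read as TGACCT on the strand shown).
FABP1: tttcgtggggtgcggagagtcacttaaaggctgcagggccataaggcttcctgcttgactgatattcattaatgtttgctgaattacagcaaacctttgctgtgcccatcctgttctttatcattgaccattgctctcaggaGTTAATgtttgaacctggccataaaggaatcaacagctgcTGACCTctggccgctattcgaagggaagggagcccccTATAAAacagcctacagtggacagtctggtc
FABP2: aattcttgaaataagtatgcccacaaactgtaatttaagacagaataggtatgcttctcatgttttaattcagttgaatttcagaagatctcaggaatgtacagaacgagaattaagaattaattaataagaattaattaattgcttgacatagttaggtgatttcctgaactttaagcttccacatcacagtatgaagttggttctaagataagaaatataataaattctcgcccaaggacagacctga

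In the FABP1 window, TATAAA began 31 bases, AGGTCA on the opposite strand 68 bases and GTTAAT 108 bases before the start. The matches did not overlap. Over the 35116 promoter windows of this length, 10.7% held TATAAA, 6.23% held GTTAAT and 12.1% held AGGTCA. The FABP2 window held none of these 3 strings of letters. Of the 7 genes, 5 had an entry in the promoter table. No window of FABP4 or FABP5 was searched. Among the other windows searched, only that of FABP6 held a match, to TATAAA on the opposite strand, 30 bases before the start. These matches describe the letters of the windows, and nothing was measured at them here.

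A library stood apart by its FABP1 and FABP4 levels. In trichostatin A C1, replicate 3 had 5.65 CPM of FABP1_11582 against 485 and 478 CPM in replicates 1 and 2, and 15 CPM of FABP4_21799 against 1.47 and 4.94 CPM. The second FABP1 row showed the same, with 0.565 CPM against 82.4 and 55.5 CPM. Values of trichostatin A are therefore given with and without this library. In 4 other libraries the mean correlation over features with the rest of the group was lower than in that library (0.8721), namely scriptaid C4 replicates 3 (0.803) and 1 (0.8625) and mocetinostat C2 replicates 3 (0.829) and 1 (0.8718). The FABP1_11582 levels of both replicates 3 were 16.5 CPM beside 12.4 and 3.72 CPM, and 342 CPM beside 516 and 588 CPM.

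FABP1, the fatty acid carrier of hepatocytes, was lower at C5 than at C1 with 7 of the 8 inhibitors, by 10.8-fold with panobinostat at the least and 172-fold with mocetinostat at the most (FABP1_11582). In each of these 7 every C5 library lay below every C1 library. Trichostatin A was the exception, with 1.11-fold lower levels and groups that overlapped, both of which rest on replicate 3 of C1. Without it the C1 libraries (485 and 478 CPM) lay above those of C5 (334, 201 and 335 CPM) and the log2 change was -0.74 (SE 0.18). The levels in replicates 1, 2 and 3 follow for each inhibitor.

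With apicidin, FABP1_11582 stood at 538, 446 and 363 CPM at C1, 270.3, 267 and 257 CPM at C2, 31.3, 15.4 and 19.2 CPM at C3, 11.9, 11.7 and 9.7 CPM at C4, and 8.23, 5.35 and 3.76 CPM at C5. With mocetinostat it stood at 723, 735 and 569 CPM at C1, 516, 588 and 342 CPM at C2, 19.5, 11.3 and 13.1 CPM at C3, 3.29, 3.78 and 2.85 CPM at C4, and 5.1, 2.53 and 4.15 CPM at C5. For both compounds the widest step lay between C2 and C3, where the libraries of the groups did not overlap. The step measured -3.59 on the log2 scale with apicidin and -5.05 with mocetinostat, each over a 3-fold rise in concentration.

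With tacedinaline, FABP1_11582 stood at 535, 340.1 and 315 CPM at C1, 378, 353 and 344 CPM at C2, 13.5, 22.8 and 12.9 CPM at C3, 2.57, 2.82 and 4.56 CPM at C4, and 5.45, 2.26 and 0.45 CPM at C5. With scriptaid the levels were 408, 283 and 373 CPM at C1, 372, 165 and 134 CPM at C2, 78.3, 13.3 and 18.2 CPM at C3, 12.4, 3.72 and 16.5 CPM at C4, and 5.43, 1.52 and 6.76 CPM at C5. The widest step again lay between C2 and C3, at -4.45 with tacedinaline and -2.61 with scriptaid. Within scriptaid the batches differed most at C3, where replicate 1 was above both others.

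With vorinostat, FABP1_11582 stood at 249, 359.5 and 278 CPM at C1, 336, 269.5 and 255 CPM at C2, 47.1, 21.5 and 70.1 CPM at C3, 1.48, 2.45 and 1.58 CPM at C4, and 5.47, 4.19 and 5.22 CPM at C5. The lowest level was thus at C4, and every C5 library lay above every C4 library (log2 step 1.43). These levels rest on few reads, with 2, 7 and 5 counts at C4 and 6, 8 and 8 counts at C5. Library totals were also lower there, with a mean of 1485592 counts at C5 against 2384024 at C4 and 3038905 at C1, and the part of depth in this step was not tested.

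With valproic acid, the levels of FABP1_11582 were 413, 453 and 452 CPM at C1, 340.2, 304 and 294 CPM at C2, 170.5, 149.8 and 192 CPM at C3, 45.4, 36 and 24.1 CPM at C4, and 44.2, 32.5 and 21.3 CPM at C5. The decline was more even, and C4 and C5, which are 1.12-fold apart in concentration, overlapped. With panobinostat they were 422, 325 and 219.9 CPM at C1, 379, 359 and 178 CPM at C2, 425 and 284 CPM at C3, 121, 188 and 181 CPM at C4, and 43.4, 20.4 and 25.6 CPM at C5. Here C1, C2 and C3 overlapped, and the widest step was the last (log2 step -2.46).

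With trichostatin A, FABP1_11582 stood at 485, 478 and 5.65 CPM at C1, 439, 492 and 336 CPM at C2, 534, 539.7 and 503 CPM at C3, 522 and 504 CPM at C4, and 334, 201 and 335 CPM at C5. The log2 change at C5 was -0.16 (SE 0.69) with all libraries and -0.74 (SE 0.18) without replicate 3 of C1. All C5 libraries lay below all C4 libraries, with a log2 step of -0.82 that the C1 library does not touch.

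**Figure D1:**
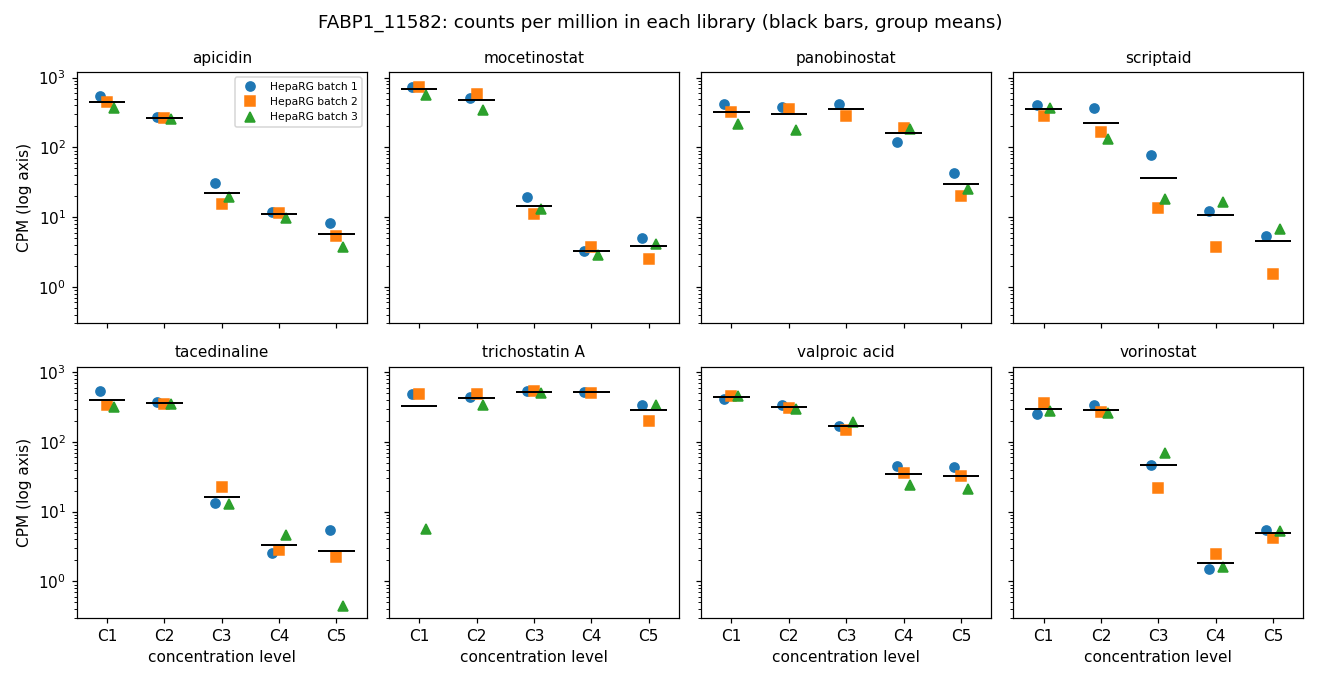
FABP1_11582 in CPM on a log axis against the concentration level, with a panel per inhibitor, a point per library coloured by HepaRG batch and a black bar at each group mean. With 7 inhibitors the C5 points lie below the C1 points, while with trichostatin A they stay between 201 and 335 CPM and replicate 3 of C1 sits alone at 5.65 CPM.

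The fitted log2 changes of FABP1_11582 at C5 against C1 were -7.42 (SE 0.35) with mocetinostat, -7.24 (SE 0.31) with tacedinaline, -6.35 (SE 0.75) with scriptaid, -6.28 (SE 0.29) with apicidin, -5.91 (SE 0.33) with vorinostat, -3.74 (SE 0.24) with valproic acid and -3.44 (SE 0.32) with panobinostat. The median over these 7 was -6.28. In 21 of 21 comparisons within a batch the value was negative, which the gap between the groups already implies. The gene was chosen on this contrast, so neither this count nor its rank is support. Among all features tested with an inhibitor, FABP1_11582 ranked between 19 and 142 from the most negative change. The concentrations differ between inhibitors and were not matched, so these values stand side by side and are not compared.

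For scale, a feature was called where the adjusted p of edgeR's quasi-likelihood test was under 0.05 and the fold change was at least 1.5. At C5 against C1 the share of tested features called lower was 15% with apicidin, 15.7% with mocetinostat, 9.46% with panobinostat, 17% with scriptaid, 20.1% with tacedinaline, 0.0154% with trichostatin A, 6.22% with valproic acid and 24.9% with vorinostat. The share called higher was 13.8% with apicidin, 14.8% with mocetinostat, 6.77% with panobinostat, 12.8% with scriptaid, 18.7% with tacedinaline, 0% with trichostatin A, 4.84% with valproic acid and 22.7% with vorinostat. For trichostatin A the 0% stands beside 681 features with a positive change at an unadjusted p under 0.05 in edgeR. DESeq2 called 16 higher. Without the C1 library of trichostatin A that stood apart, 21 of 12878 tested features were called higher and 83 lower. These shares were above those with all libraries, and still below those of every other inhibitor. FABP1 and FABP4 were picked from this contrast, and nothing is read from these shares about them.

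The second FABP1 row, FABP1_2298, is a separate detector probe for the same gene. It was read at a mean of 124 ± 20.5 CPM (SD, n = 3) at C1 of mocetinostat and 50.3 ± 9.71 CPM (SD, n = 3) at C1 of panobinostat, the highest and lowest of the 7 inhibitors other than trichostatin A. At C5 its libraries held at most 3 counts each with mocetinostat, scriptaid and vorinostat, so that only bounds can be given there. Taking 3 counts per library as the floor, the level was at least 154-fold lower with mocetinostat, at least 57.2-fold lower with scriptaid and at least 29.2-fold lower with vorinostat. Its log2 change at C5 was -6.88 (SE 0.60) with apicidin, -5.49 (SE 0.47) with tacedinaline, -3.87 (SE 0.28) with valproic acid and -3.72 (SE 0.52) with panobinostat. With trichostatin A it was -0.24 (SE 0.63), and -0.82 (SE 0.23) without replicate 3 of C1. The values of apicidin and tacedinaline also rest on few reads, with 4, 0 and 3 counts and 1, 8 and 3 counts at C5. With panobinostat the C5 counts were 32, 12 and 0.

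Over the 40 group means the FABP1 rows moved alike on the log2 CPM scale (Pearson r 0.982, Spearman rho 0.963, a description over groups that share the same libraries). In the 84 libraries with more than 10 counts in both rows, FABP1_11582 was read 5.72 times as often as FABP1_2298 at the median, with a range from 1.73 to 12.7.

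FABP4, the adipocyte and macrophage form, was read at low levels at C1 and was higher at C5 with the same 7 inhibitors. The change ran from 10.03-fold with panobinostat to 45.7-fold with scriptaid, and in all 7 every C5 library lay above every C1 library. Their C1 libraries held between 2 and 21 counts of FABP4_21799, so that fold values against C1 rest on few reads. The levels of FABP4_21799 in replicates 1, 2 and 3 are given in the same way.

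With scriptaid, FABP4_21799 stood at 6.07, 3.93 and 3.87 CPM at C1, 9.34, 19 and 15.8 CPM at C2, 25.8, 57.7 and 64.3 CPM at C3, 47.9, 104 and 74.5 CPM at C4, and 303.2, 212 and 119 CPM at C5. With tacedinaline it stood at 3.55, 4.93 and 2.29 CPM at C1, 9.09, 7.37 and 6.5 CPM at C2, 42.6, 35.8 and 42.5 CPM at C3, 130.4, 154 and 128 CPM at C4, and 146, 90.3 and 126 CPM at C5. Scriptaid was still climbing over its last step (log2 step 1.49, no overlap), while the last groups of tacedinaline overlapped.

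With mocetinostat, FABP4_21799 stood at 3.42, 0.843 and 3.99 CPM at C1, 19, 23.7 and 13.8 CPM at C2, 114, 121 and 94 CPM at C3, 101, 117 and 101 CPM at C4, and 104, 82.2 and 73.2 CPM at C5. Its widest step was already between C1 and C2 (log2 step 2.78, against 2.54 in the next), where FABP1_11582 overlapped between the groups. With vorinostat the levels were 3.45, 1.82 and 2.89 CPM at C1, 3.6, 3.44 and 1.62 CPM at C2, 12.4, 12.7 and 10.3 CPM at C3, 33.4, 41.7 and 32 CPM at C4, and 62.9, 68.5 and 63.2 CPM at C5. Here C1 and C2 overlapped and each later group lay above the one before.

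With apicidin, FABP4_21799 stood at 1.79, 3.78 and 5.38 CPM at C1, 8.18, 6.44 and 8.36 CPM at C2, 31.9, 30.8 and 46.4 CPM at C3, 44, 57.2 and 53.4 CPM at C4, and 69.6, 57.7 and 32.7 CPM at C5. With valproic acid it stood at 2.68, 3.45 and 0.496 CPM at C1, 7.29, 6.08 and 3.48 CPM at C2, 8.61, 13.7 and 14 CPM at C3, 21.6, 29.5 and 28.6 CPM at C4, and 36.3, 32.5 and 21.3 CPM at C5. With both, C2 was already above C1 in every library, and C4 and C5 overlapped.

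With panobinostat, FABP4_21799 stood at 2.75, 3.13 and 0.623 CPM at C1, 1.96, 3.96 and 3.39 CPM at C2, 6.78 and 4.31 CPM at C3, 7.78, 5.42 and 8.71 CPM at C4, and 24.5, 23.4 and 17.3 CPM at C5. With trichostatin A the levels were 1.47, 4.94 and 15 CPM at C1, 3.89, 1.94 and 0.869 CPM at C2, 4.32, 3.45 and 4.38 CPM at C3, 5.78 and 6.2 CPM at C4, and 1.55, 6.21 and 1.2 CPM at C5. Neighbouring trichostatin A groups overlapped except C3 and C4. Its log2 change at C5 was -1.22 (SE 0.77) with all libraries and -0.06 (SE 0.80) without replicate 3 of C1.

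**Figure D2:**
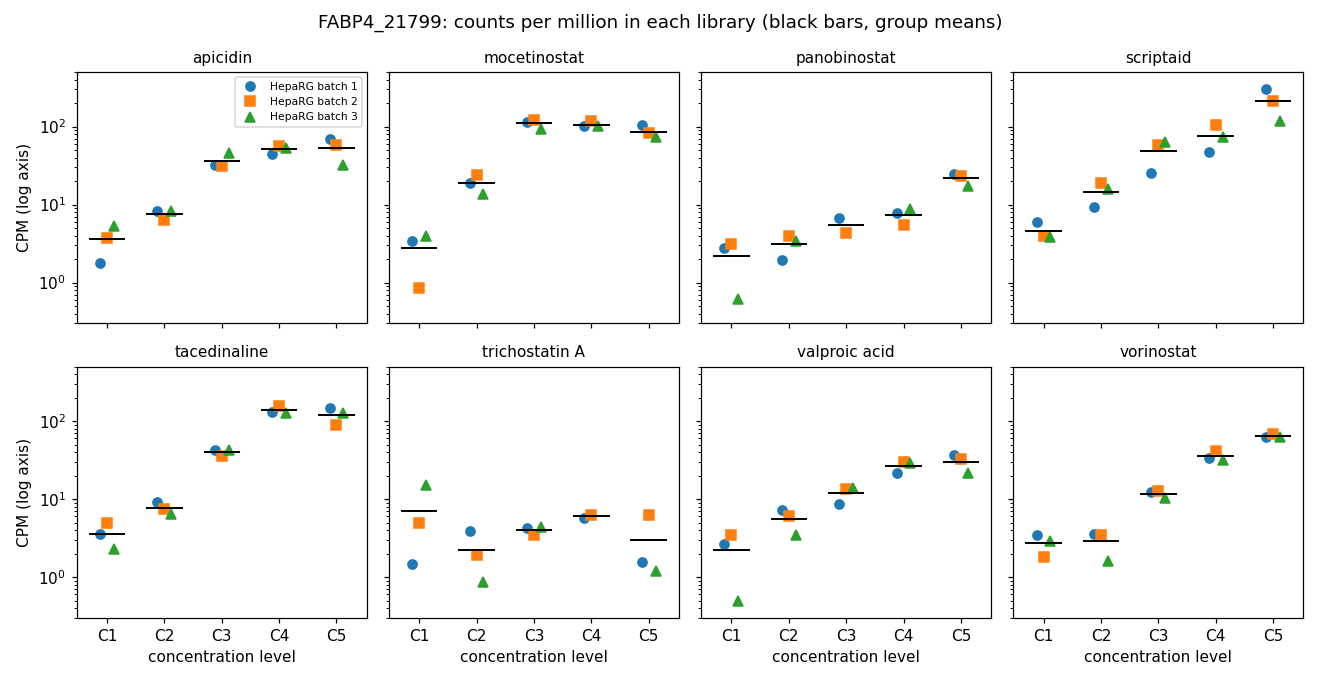
FABP4_21799 in CPM on a log axis against the concentration level, with a panel per inhibitor, a point per library coloured by HepaRG batch and a black bar at each group mean. With 7 inhibitors all C5 points lie above all C1 points, with scriptaid reaching 119 to 303.2 CPM at C5, and the mean is highest at C3 with mocetinostat (109.7 CPM) and at C4 with tacedinaline (138 CPM), while the trichostatin A points lie between 0.869 and 6.21 CPM apart from replicate 3 of C1.

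The fitted log2 changes of FABP4_21799 at C5 against C1 were 5.51 (SE 0.48) with scriptaid, 5.07 (SE 0.30) with tacedinaline, 4.98 (SE 0.40) with mocetinostat, 4.62 (SE 0.37) with vorinostat, 3.89 (SE 0.36) with apicidin, 3.78 (SE 0.45) with valproic acid and 3.25 (SE 0.48) with panobinostat. The median was 4.62. In 21 of 21 comparisons within a batch the value was positive, which the gap between the groups already implies. This gene, too, was chosen on this contrast, so neither this count nor its rank is support. From the most positive change FABP4_21799 ranked between 38 and 102 among all features tested with each inhibitor.

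**Figure D3:**
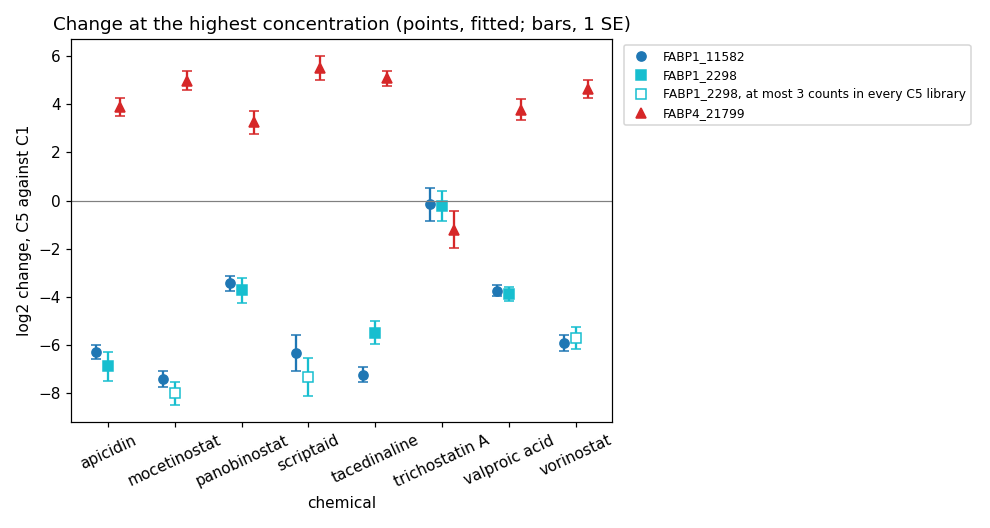
Fitted log2 change at C5 against C1 on the vertical axis for FABP1_11582, FABP1_2298 and FABP4_21799 with each inhibitor, with bars of 1 SE, and open squares where every C5 library held at most 3 counts. FABP1_11582 lies between -7.42 and -3.44 and FABP4_21799 between 3.25 and 5.51 with 7 inhibitors, the open squares are fitted values where the data give bounds only, and the values of trichostatin A lie between -1.22 and -0.16.

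By the cut-offs that follow, the first marked change of FABP4 lay at a lower level than that of FABP1_11582 with 6 of the 7 inhibitors. With vorinostat it lay at the same level. The mean of FABP4_21799 first reached at least 2 times that of C1 at C2 with apicidin, mocetinostat, scriptaid, tacedinaline and valproic acid, and at C3 with panobinostat and vorinostat. The mean of FABP1_11582 was first at most 50% of that of C1 at C3 with 6 inhibitors and at C5 with panobinostat. Some values lay close to a cut-off. FABP4_21799 at C2 was 2.1 times C1 with apicidin and 2.13 times with tacedinaline, and FABP1_11582 was at 50.7% of C1 at C4 with panobinostat. The order thus depends on the cut-offs. At C2, FABP4_21799 was above C1 without overlap with 5 of 7 inhibitors, and FABP1_11582 was below C1 without overlap with 2 of 7 (apicidin and valproic acid). At C3 these numbers were 7 of 7 and 6 of 7, with panobinostat the one without a gap for FABP1. FABP1_2298 followed FABP1_11582 in this except with mocetinostat, where it was at most 50% of C1 already at C2. With valproic acid the gap of FABP4_21799 was narrow, with 3.48 CPM in the lowest library of C2 against 3.45 CPM in the highest of C1. The share of all features whose groups did not overlap is not given here, so these counts of inhibitors are a description. The difference in first concentration was not tested.

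At the top of the range the levels often no longer differed beyond their spread. Between C4 and C5, FABP1_11582 overlapped with 4 of 8 inhibitors, FABP1_2298 with 4 (vorinostat among them, at most 3 counts in each library of C4 and C5) and FABP4_21799 with 5. Over all 40 groups, put on 1 common scale and lying on both plates, FABP4_21799 was highest at scriptaid C5 (196 ± 86.1 CPM, SD, n = 3), followed by tacedinaline C4 (127 ± 14.7 CPM, SD, n = 3), mocetinostat C3 (116 ± 14.5 CPM, SD, n = 3) and mocetinostat C4 (109.8 ± 10.03 CPM, SD, n = 3), and these neighbours lay within their SD of each other apart from the first pair, whose difference was still smaller than the SD of scriptaid C5. The lowest group was valproic acid C1 (2.15 ± 1.49 CPM, SD, n = 3). FABP1_11582 was highest at mocetinostat C1 (728 ± 98.2 CPM, SD, n = 3), above trichostatin A C3 (554 ± 19.8 CPM, SD, n = 3) by more than either SD, and lowest at vorinostat C4 (1.73 ± 0.501 CPM, SD, n = 3), next to tacedinaline C5 (2.47 ± 2.3 CPM, SD, n = 3) and tacedinaline C4 (3.06 ± 1 CPM, SD, n = 3), each within the larger SD of its neighbour in this order. These lowest groups of FABP1_11582 held at most 14 counts in a library.

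Across the 40 group means, FABP4_21799 was high where FABP1_11582 was low (Pearson r -0.915, Spearman rho -0.842 on the log2 CPM scale). Without the 5 trichostatin A groups the values were -0.914 and -0.870. The groups share libraries for both genes and the concentration series of 8 compounds, the family was chosen for this opposition, and no test was made.

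**Figure D4:**
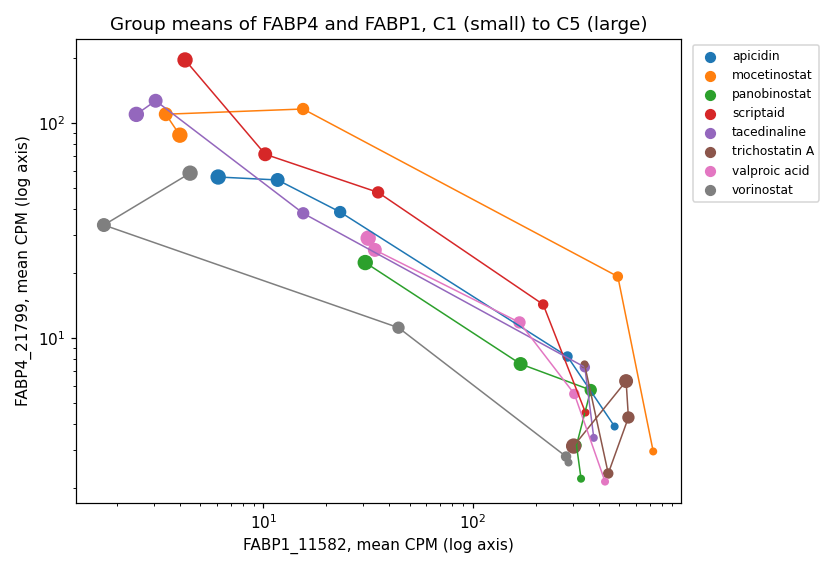
Mean CPM of FABP4_21799 against mean CPM of FABP1_11582 in the 40 groups, both on log axes, with a colour per inhibitor, a line joining its levels and points growing from C1 to C5. The lines run from lower right to upper left with 7 inhibitors, vorinostat turns back to the right between C4 (1.73 CPM of FABP1_11582) and C5 (4.46 CPM), and the trichostatin A points stay at the lower right. The vorinostat libraries of C4 and C5 held at most 8 counts of FABP1_11582 each.

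The other members were at or near the limit of detection. FABP2_89564, the intestinal form, had 10 counts in all over the 118 libraries and never more than 3 in a library. FABP7_21750 and FABP7_2300, the rows of the brain form, had 11 and 7 counts in all and at most 2 and 1 in a library. FABP3_15817, the heart and muscle form, had 27 counts, was at 0 in 110 libraries and passed 3 counts in 4, with 7 in mocetinostat C1 replicate 3, 4 in mocetinostat C5 replicate 1, 6 in vorinostat C4 replicate 2 and 6 in vorinostat C5 replicate 1. FABP6_25130, the bile acid carrier of the ileum, had 18 counts, was at 0 in 113 libraries and passed 3 counts in 3, with 6 in apicidin C5 replicate 2, 4 in mocetinostat C2 replicate 3 and 5 in mocetinostat C5 replicate 2. Each such count stood alone in its group, so that no group of a member other than FABP1 and FABP4 was above the floor in all its libraries.

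A count of 3 corresponded to 0.596 to 2.74 CPM, depending on the library, and a lower level of these members was not detectable at this depth. None of the 5 rows passed the filter on low counts with any inhibitor, so that 3 of the 8 rows were tested, all of FABP1 and FABP4, and 0 rows of the other members were called in either direction. With the filter removed, edgeR gave 20 tests of these rows at C5 against C1, of which 1 had an unadjusted p under 0.05 and none an adjusted p under 0.05 (lowest 0.0964). DESeq2 gave them no adjusted p.

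The HepaRG batch was not used to choose the family, and the members were tested for it. At C1, over all 8 inhibitors, FABP1_11582 lay between 232 and 749 CPM in batch 1 (median 453), between 263 and 751 CPM in batch 2 (median 379) and between 5.8 and 593 CPM in batch 3 (median 318, n = 8 in each batch). FABP1_2298 had medians of 82.1, 61.6 and 54.7 CPM, and FABP4_21799 of 2.96, 3.44 and 3.14 CPM. The ranges of the batches overlapped for all 3 rows. In edgeR's quasi-likelihood test with the inhibitor as a covariate, the adjusted p was 0.817 for FABP1_11582, 0.695 for FABP1_2298 and 0.991 for FABP4_21799, while 0.0907% of all features tested were called.

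That result for FABP1_2298 turned on the library that stood apart. The library was noticed by its own FABP1 and FABP4 levels, so leaving it out is not independent of what is tested. Without replicate 3 of trichostatin A C1, the log2 difference from batch 1 was -0.37 in batch 2 and -0.44 in batch 3 and the adjusted p in edgeR was 0.0228. In that setting 262 of all 12248 features tested were called. FABP1_11582 then had log2 differences of -0.16 and -0.35 with an adjusted p of 0.109, and FABP4_21799 of 0.11 and -0.21 with an adjusted p of 0.931. Without the filter on low counts the adjusted p in edgeR was 6.46e-07 for FABP1_11582 and 7.94e-05 for FABP1_2298, and 206 of all 19682 features tested were called. Over these 2 settings and the other alternatives the adjusted p ran up to 0.9995 for both FABP1 rows, so that a batch difference of FABP1 at C1 was called in some settings and not in others.

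The slope of the members on log2 concentration was also compared between the batches. In 24 tests (3 rows with 8 inhibitors) edgeR gave 0 with an adjusted p under 0.05 and 0 with an unadjusted p under 0.05, and the lowest adjusted p was 0.529 (FABP4_21799 with trichostatin A). Over all features the share called was 0% with apicidin, 0% with mocetinostat, 0% with panobinostat, 0% with scriptaid, 0% with tacedinaline, 0% with trichostatin A, 0% with valproic acid and 0% with vorinostat, beside 59 to 1280 features with an unadjusted p under 0.05. A batch difference in the slope of FABP1 or FABP4 was therefore not detectable with 1 library per batch and concentration, which does not show that the slopes were equal.

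Genes that share the work of the family were read from lists chosen with earlier results of these data known. For comparison, over all features and inhibitors 11.6% of 101732 tests were called higher and 13.4% called lower. Among the wider family of intracellular lipid and retinoid carriers, 9 rows of 9 genes, 3 rows passed the filter, and in 23 tests 5 were called higher and 6 lower. RBP5_17131, a cellular retinol binding protein of the liver, fell with 6 inhibitors (log2 change -3.96 with tacedinaline at the lowest). CRABP2_10904, which carries retinoic acid to its nuclear receptor, rose with 3 (apicidin 3.07, mocetinostat 2.34, vorinostat 2.74). FABP9, FABP12 and PMP2, the remaining relatives of FABP4, never passed the filter. The count higher was 1, 0 and 3 without batch 1, 2 and 3, and the count lower was 3 without batch 2.

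Genes of fatty acid uptake and activation, 18 rows of 16 genes, gave 9 calls higher and 30 lower in 111 tests. SCP2_27826, a row of the sterol carrier protein that also binds fatty acyl-CoA, fell with 7 inhibitors (log2 change -3.62 with mocetinostat to -1.28 with valproic acid), and the second row of that gene, SCP2_6152, fell with 5. ACSL5_23312, an acyl-CoA synthetase, fell with 5 (-3.42 with tacedinaline to -1.22 with apicidin). ACSL3_16977, the acyl-CoA synthetase of the endoplasmic reticulum and lipid droplets, went the other way and rose with 5 (0.94 with vorinostat to 1.86 with scriptaid).

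Nuclear receptors of lipid metabolism and liver transcription factors, 18 rows of 15 genes, gave 5 calls higher and 47 lower in 124 tests. HNF4A_28261, the nuclear receptor that governs much of the hepatocyte programme, fell with 6 inhibitors (log2 change -4.59 with mocetinostat to -1.73 with panobinostat). NR1H4_25084, the bile acid receptor FXR, fell with the same 6 (-6.93 with vorinostat to -1.33 with panobinostat). FOXA1_22204, a pioneer factor of the liver, also fell with 6 (-3.48 with vorinostat to -1.001 with panobinostat), and RXRA_27819, the partner of the PPARs, with 5. All 5 calls higher were of PPARD_88065, the widespread PPAR, which was named here after its values were seen. Without batch 2 there were 2 calls higher and 30 lower.

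PPARA and PPARG, the receptors that act on FABP1 and FABP4 in liver and fat, did not move together. PPARA_17989 fell with 5 inhibitors (log2 change -1.37 with tacedinaline to -0.69 with apicidin) and PPARA_5300 with 3. PPARG_28287 was called with 0 of 8 in edgeR, where none had an unadjusted p under 0.05 and the log2 change lay between -0.30 and 0.60. DESeq2 gave it an adjusted p under 0.05 with 1 inhibitor, in the lower direction. These rows, too, were named after their values were seen, and their part in the changes of FABP1 and FABP4 was not tested.

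Targets of PPARA other than FABP1, 16 rows of 14 genes, gave 10 calls higher and 44 lower in 107 tests. EHHADH_17577, an enzyme of peroxisomal beta-oxidation, fell with 7 inhibitors (log2 change -2.62 with vorinostat to -1.13 with panobinostat). CYP4A11_89302, a fatty acid hydroxylase, was called lower with 6. CREB3L3_29025, a liver transcription factor of the fasting response, fell with 5 and rose with scriptaid (log2 change 1.03). The list was thus not uniform in direction, and 4 of its rows were called higher with at least 1 inhibitor. Without batch 1 there were 5 calls higher, and CREB3L3_29025 was called higher with 0 inhibitors without batch 1, without batch 2 and as a slope.

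**Figure D5:**
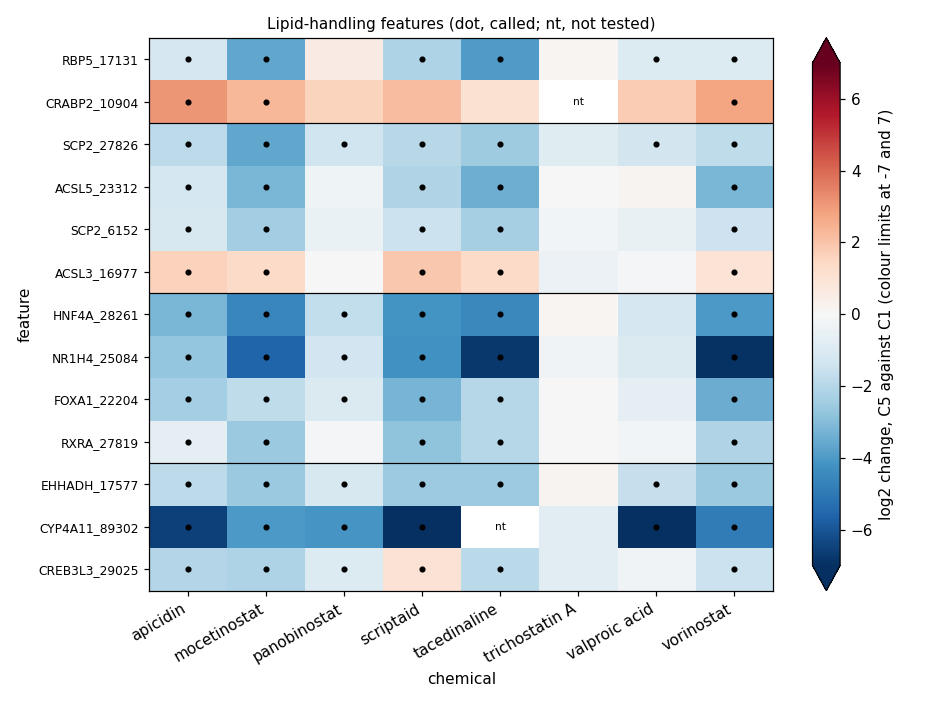
Log2 change at C5 against C1 of 13 features of the 4 lipid lists, in rows set apart by lines, with a column per inhibitor, colour limits at -7 and 7, a dot where the feature was called and nt where it was not tested. Calls are spread over 7 columns, none stands in the trichostatin A column, and CRABP2 and ACSL3 are the rows with calls higher only.

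The features whose levels ran most like FABP1_11582 over the 40 group means, among 11288 features, were SERPINA10_11355 (Pearson r 0.986), HAO2_89824 (0.985), SLCO2B1_6541 (0.983), ACSM2A_20941 (0.983) and AGXT2_88650 (0.983). They encode, in that order, a serpin of plasma, a peroxisomal hydroxyacid oxidase, an organic anion uptake carrier, a medium-chain acyl-CoA synthetase with a close copy in the genome, and a mitochondrial aminotransferase. With tacedinaline the mean of HAO2_89824 went from 618 to 3.89 CPM between C1 and C5, beside 397 to 2.72 CPM for FABP1_11582. For FABP1_2298 the nearest feature was the other row of the same gene (r 0.982), followed by SERPINA10_11355 (0.977), HAO2_89824 (0.975), SLCO2B1_6541 (0.974) and AGXT2_88650 (0.972).

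The features most like FABP4_21799 were CPA4_20086 (Pearson r 0.945), HABP4_20760 (0.933), ASMTL_20341 (0.931), ARG2_19025 (0.930) and PDP1_26021 (0.920), which encode a carboxypeptidase, a hyaluronan and RNA binding protein, a protein related to the last enzyme of melatonin synthesis, the mitochondrial arginase and a pyruvate dehydrogenase phosphatase. With scriptaid the mean of CPA4_20086 went from 14.4 to 651 CPM and that of ARG2_19025 from 4.72 to 127 CPM, beside 4.63 to 211 CPM for FABP4_21799. PDP1_26021 moved far less, from 34.9 to 87.2 CPM. These correlations describe groups that share libraries and carry no p.

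Markers of the cell types that use the members were read in the same libraries. The summed level of the 9 hepatocyte markers, 10 rows, lay between 13170 and 66240 CPM at C1 (median 49390) and between 3403 and 46750 CPM at C5 (median 13020, 24 libraries each). In 80 tests edgeR called 66 lower and 0 higher, with 0 higher at an unadjusted p under 0.05, and DESeq2 also called 0 higher. APOB_24157, the protein of very low density lipoprotein, TF_15172, which carries iron in plasma, and both rows of the drug-metabolising enzyme CYP3A4 (CYP3A4_88797 and CYP3A4_90076) each fell with 7 inhibitors. FABP1 thus moved in the same samples and direction as the markers of its own cell type, and the part of hepatocyte content in its change was not tested.

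The summed level of the adipocyte markers, read over all inhibitors, went the other way from FABP4. Their summed level over 8 genes was 156 CPM at the median at C1 (range 109 to 294) and 60.4 CPM at C5 (range 14.7 to 174). Only 3 of the 8 rows passed the filter, and in 24 tests 3 were called higher and 11 lower. The direction was not the same with each inhibitor. The median log2 change of these 3 rows at C5 was positive with scriptaid (1.478) and valproic acid (1.014), where FABP4 also rose. With every other inhibitor this median was negative, from -4.618 with tacedinaline to -0.5953 with trichostatin A. CIDEC_20342, a lipid droplet protein, fell with 6 inhibitors, PLIN4_25165, another, with 5, and LPL_15084, lipoprotein lipase, rose with 3. The calls of LPL_15084 numbered 1 without batch 1 and 1 without batch 2, and those of PLIN4_25165 numbered 3 without batch 3. CFD and CIDEA never passed 3 counts in these libraries, and ADIPOQ_25453, the gene of adiponectin, had at most 18 counts in a library of C1 or C5. The macrophage markers had a summed median of 46.1 CPM at C1 and 33.7 CPM at C5, PTPRC, the general leukocyte marker, never passed 3 counts, and in 16 tests 3 were called lower. CD14_18823 fell with 2 inhibitors (1 without any 1 of the batches) and CD68_20756 with 1 (3 without batch 3).

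The biliary and progenitor list had a summed median of 87.7 CPM at C1 (range 70 to 157) and 138 CPM at C5 (range 70.2 to 217), with 11 calls higher and 4 lower in 41 tests. SPP1_6720, osteopontin, and SOX9_22075, a factor of biliary cells, each rose with 5 inhibitors, AFP_158, the fetal plasma protein, fell with 4, and KRT19_3690, a biliary keratin, rose with 1. EPCAM never passed 3 counts. Without batch 1, 2 or 3 the calls lower, all of AFP_158, numbered 2, 1 and 1, and as a slope 2. Without batch 1 there were 7 calls higher, 3 of them of SPP1_6720, and KRT19_3690 was called with 0 inhibitors without batch 1 or 2. The endothelial list had a summed median of 12.1 CPM at C1 and 6.91 CPM at C5, with 1 call lower in 10 tests (KDR_3546, which was called with 0 inhibitors without batch 1 or 2), and with 4 calls lower by DESeq2.

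The lists of tissues that use the silent members were low throughout. Enterocyte markers, for FABP2 and FABP6, had a summed median of 16.3 CPM at C1 and 4.5 CPM at C5, with 7 calls lower in 15 tests (VIL1_22420 with 5 inhibitors and APOA4_11073 with 2), and with 3 calls lower without batch 1 and 4 without batch 2. Striated muscle markers, for FABP3, had 0.611 CPM at C1 and 0.674 CPM at C5, and none of their 6 rows passed the filter. Radial glia markers, for FABP7, had 12.4 CPM at C1 and 18.7 CPM at C5, with 3 calls higher and 1 lower in 24 tests (SLC1A3_13929 higher with 2 inhibitors and lower with 1, NES_4542 higher with 1), and PAX6 and HES5 never passed 3 counts. As a share of tests, the radial glia calls higher lay near that of all features (11.6%). Without batch 1, 2 or 3 the radial glia calls higher numbered 0, 0 and 1, and NES_4542 was called with 0 inhibitors in each of these.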

How the data were processed

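The authors deposited whole-number read counts per detector probe (TempO-Seq, human whole transcriptome panel), with no normalization. The tools named in the submitters' processing notes are bcl2fastq 2.20.422, fastp 0.23.2, STAR 2.7.10b and DESeq2 1.38.0. No genome build is given in the sources used here, so rows carry no coordinates. Of 22069 rows, 1 without a value in every library was left out. Fits were made per inhibitor with edgeR 4.0.16 in R 4.3.3 (filterByExpr, TMM scaling, quasi-likelihood F test over the 5 concentration groups, Benjamini-Hochberg adjustment), C5 against C1, and a row was called where the adjusted p lay under 0.05 and the fold reached 1.5. Levels are CPM on the same scaling, and those set across inhibitors used 1 scaling of all libraries, which differed by at most 10.4% for a library. SE values were derived from the log2 change and the F statistic. Correlations used log2 CPM with a prior count of 2. DESeq2 1.42.0 was an alternative. A group with at most 3 counts in every library was treated as at the floor. The scripts were tested on simulated data. Bounds and floors hold counting error alone, because PCR reads that lack molecular identifiers do not count molecules.

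The members and all lists were chosen with earlier results of these data known. The lists are the wider lipid carrier family, fatty acid uptake and activation, lipid nuclear receptors and liver factors, PPARA targets, and markers of hepatocytes, biliary and progenitor cells, adipocytes, macrophages, endothelium, enterocytes, striated muscle and radial glia. Named were all member rows, from each list at most 4 rows called with most inhibitors in 1 direction (or the most abundant row), and the 5 rows most correlated with each tested member row. Some rows that this rule picks are not reported here. Replicate numbers mark HepaRG batches per the labels. In the pairing check, libraries of the same batch deviated together hardly more than others (median r 0.0361 over 232 pairs against -0.0145 over 464 pairs), and the batch was used as a block in an alternative only.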

Additional observations from a re-analysis of the deposited data

How the results depend on the processing

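The calls of the lists and the changes of FABP1 and FABP4 were recomputed with DESeq2 size factors in edgeR, without a filter on low counts, with DESeq2's Wald test, with the HepaRG batch as a replicate block, without each batch in turn, as a slope on log2 concentration, without the fold threshold and without trichostatin A C1 replicate 3. With the HepaRG batch as a replicate block, every count of the 4 lipid lists stayed within 1.5 times of the main count, the endothelial list had 2 calls lower against 1, and the median log2 change of FABP1_11582 over 8 inhibitors was -6.10. As a slope, that median was -6.70, against -6.10 in the group comparison, and the cause was not tested. Without a fold threshold, the lipid receptor list had 8 calls higher against 5. With a batch or that library left out, the wider carrier family had 0 to 5 calls higher and 3 to 6 lower, the lipid receptor list 2 to 6 higher and 30 to 47 lower, and the PPARA targets 5 to 10 higher, from fewer libraries. The batch test at C1 gave an adjusted p of 6.46e-07 for FABP1_11582 and 7.94e-05 for FABP1_2298 without the filter, and 0.0228 for FABP1_2298 without trichostatin A C1 replicate 3; the cause was not tested. Calls for all features in that test numbered 11 of 12127, against 206 of 19682 without the filter, 93 by DESeq2's likelihood ratio test, 262 of 12248 without that library, and 2 with each plate alone. Over the counts of the lipid lists, the tests of the members and their medians, 135 alternative values kept their side of the threshold or their size, 9 moved and 3 became significant. These values include the counts of 0 for members other than FABP1 and FABP4, whose rows did not pass the filter, so that they could hardly change. They also include medians of FABP1 and FABP4, which were chosen on this contrast. For the members the tally is therefore no measure of robustness. Over single features, marker lists and the changes with each inhibitor, 636 stayed and 75 moved. Depth limits FABP2, FABP3, FABP6 and FABP7, which lay at or near the floor.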
